A study of Mus musculus with 16 samples.

Results

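The genes described here are 6 members of the gasdermin family of pore-forming proteins (Gsdmc, Gsdmc2, Gsdmc3, Gsdmc4, Gsdmd and Gsdme), taken by gene name from the 41740 genes listed for each of 16 mouse ileum libraries. They were chosen after an earlier look at the same libraries, in which Gsdmc2 and Gsdmc3 were among the largest rises with insulin. The values that chose them are those of insulin-treated against untreated control mice, so that contrast is described below without a test. The other 2 comparisons are tested, and each of them shares a control group with the contrast that chose the genes. Values in a shared group that enlarged the rise also enter these comparisons. Differences in Gsdmc2, Gsdmc3 and the gasdermin C sum can therefore be overstated there.

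All mice were male STAM mice, a diabetic model of steatohepatitis and liver cancer made by injecting 200 µg of streptozotocin at 2 days of age and feeding high-fat chow once the mice were 4 weeks old, so every group had both. All 3 groups carried the floxed insulin receptor gene. Control-STAM-nonINS (n = 4) were Cre-negative and received no insulin (untreated controls), Control-STAM-INS (n = 6) were Cre-negative and received insulin injections from 6 weeks of age (insulin-treated controls), and ieIRKO-STAM-INS (n = 6) carried Villin-Cre and received the same insulin (ieIRKO mice). Total RNA came from ileum tissue at 20 weeks of age, and each library is labelled as a biological replicate. The Villin promoter drives Cre in the intestinal epithelium alone, whereas the tissue also held other cells (smooth muscle markers summed to 2077 to 3206 CPM), and in such bulk RNA fewer cells of a type and less RNA per cell cannot be told apart. CPM is a gene's count scaled to its library's size, with the size corrected by TMM.

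Gasdermins are cytosolic proteins held inactive by their own C-terminal part. When a protease cuts the linker between its parts, the N-terminal part is released, assembles in the membrane and forms a pore through which cytokines leave and by which the cell can die. Gsdmd is the substrate of the inflammasome caspases, Gsdme is cut by granzyme B among other proteases, and the gasdermin C genes are expressed in the epithelium of skin and gut, where type 2 cytokines acting through Stat6 are known to raise them in the mouse intestine.

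The gasdermin C genes are neighbours on chromosome 15 of GRCm38 and all lie on the minus strand: Gsdmc at 63775968 to 63808759, Gsdmc2 at 63824346 to 63845177, Gsdmc3 at 63857724 to 63878558 and Gsdmc4 at 63891264 to 63912297. Gsdmd lies farther along the same chromosome on the plus strand (75862327 to 75867408), and Gsdme lies on the minus strand of chromosome 6 (50188888 to 50263862). The coding sequences of Gsdmc2, Gsdmc3 and Gsdmc4 are 1440 bases long and spread over 11 exons. Gsdmc2 and Gsdmc3 were identical at 97.1% of aligned coding bases, Gsdmc2 and Gsdmc4 at 93.5%, and Gsdmc3 and Gsdmc4 at 93.4%, whereas Gsdmc reached at most 86.4% with any of them. How far the genes can be told apart bears on every count below, so the stretches of most and least difference among the 3 expressed genes are shown, taken from the GENCODE transcripts of GRCm38 in the 5′ to 3′ direction of the coding strand. In the 120-base window with the most differences (coding bases 759 to 878 of Gsdmc2), capitals mark the bases that differ from Gsdmc2.
Gsdmc2: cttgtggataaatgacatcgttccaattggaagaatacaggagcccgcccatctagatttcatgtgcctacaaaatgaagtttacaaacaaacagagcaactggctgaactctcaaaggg
Gsdmc3: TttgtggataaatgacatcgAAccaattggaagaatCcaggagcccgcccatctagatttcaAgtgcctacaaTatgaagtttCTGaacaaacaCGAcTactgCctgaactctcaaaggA
Gsdmc4: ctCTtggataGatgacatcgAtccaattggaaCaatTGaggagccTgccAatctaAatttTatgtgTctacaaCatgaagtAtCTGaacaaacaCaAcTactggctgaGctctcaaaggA
Gsdmc: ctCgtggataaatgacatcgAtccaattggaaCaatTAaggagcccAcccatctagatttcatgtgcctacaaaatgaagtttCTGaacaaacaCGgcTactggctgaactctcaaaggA
Here Gsdmc3 differed from Gsdmc2 at 15 bases, Gsdmc4 at 22 and Gsdmc at 13. The longest stretch that Gsdmc2, Gsdmc3 and Gsdmc4 share without a difference is 146 bases long, at coding bases 256 to 401 in each of them. It is printed once for these 3 genes, and the line for Gsdmc has in capitals the 25 bases at which that gene differs.
Gsdmc2, Gsdmc3 and Gsdmc4: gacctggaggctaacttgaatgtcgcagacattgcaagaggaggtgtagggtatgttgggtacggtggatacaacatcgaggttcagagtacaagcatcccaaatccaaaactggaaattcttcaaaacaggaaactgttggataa
Gsdmc: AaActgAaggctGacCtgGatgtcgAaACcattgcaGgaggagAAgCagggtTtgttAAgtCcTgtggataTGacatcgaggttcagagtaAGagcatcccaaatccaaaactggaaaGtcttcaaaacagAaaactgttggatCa
A read that falls wholly inside the first of these lines cannot be assigned to 1 gene. Of all 50-base windows of the coding sequence, 47.8% of Gsdmc2, 46.7% of Gsdmc3 and 50.8% of Gsdmc4 occurred in another gasdermin C gene, and with 100-base windows the shares were 28%, 31.2% and 27.7%. The values of the single genes are therefore uncertain in how reads were split among them, and the summed count of the gasdermin C genes is given beside them.

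Depth ran from 13288018 to 22215382 counted reads per library, and all levels are in CPM. The ileal identity of the tissue was carried by Fabp6, Slc10a2, Slc51a and Slc51b. Their summed level was 7717 to 11557 CPM in untreated controls, 6258 to 9357 in insulin-treated controls and 5382 to 8463 in ieIRKO mice. The medians were 9320, 7846 and 6283 CPM in the same order. Of these 4 genes Fabp6 alone was called, lower in ieIRKO mice than in untreated controls. The proximal genes Gata4, Lct and Fabp1 summed to 42.7 to 146 CPM in untreated controls, 3.95 to 44.2 CPM in insulin-treated controls and 7.97 to 42.9 CPM in ieIRKO mice. Of the proximal genes Fabp1 was called, lower than in untreated controls both in insulin-treated controls (edgeR adjusted p = 0.0117) and in ieIRKO mice (adjusted p = 0.0181). The part of these regional markers in the gasdermin results was not tested. Insr, the targeted gene, had a mean of 105 ± 12.3 CPM (SD, n = 4) in the untreated controls. With insulin it was at 62.7 ± 10.1 CPM (SD, n = 6) in controls, and at 67.2 ± 13.4 CPM (SD, n = 6) in mice with the knockout label. The label thus did not go with less Insr (log2 fold change 0.10 against insulin-treated controls, 95% confidence interval -0.16 to 0.37, edgeR adjusted p = 0.805). The gene count also takes in cells without Cre and any reads outside the floxed part, so the knockout label was not checked by this gene, and ieIRKO mice below means the mice so labelled. Untreated control replicate 4 stood apart. Its 7 pan-epithelial markers summed to 9629 CPM, against 15514 to 16890 in the other 3 libraries of its group, and its B cell, T cell, macrophage and neutrophil marker sums were the highest of the group. B and plasma cell markers summed to 718 to 1771 CPM in untreated controls, 959 to 1541 in insulin-treated controls and 1655 to 3115 in ieIRKO mice, and their part in the results was not tested. Within the last group, ieIRKO replicates 2 and 3 held the most Ms4a1, a B cell gene.

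Gsdmc had no read in any of the 16 libraries. With 266974081 counts in all, 0 counts allow a level of up to 0.0112 CPM over the libraries together (3 counts), or of up to 0.135 to 0.226 CPM in a single library. The other 5 genes passed the filter on low counts, as 15267 of the 22872 genes with a count did.

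Per kilobase of transcript and averaged over all libraries, Gsdmd was highest at 145 CPM per kb, followed by Gsdme at 86.9, Gsdmc4 at 21.9, Gsdmc2 at 10.7 and Gsdmc3 at 5.12. The order of the group means was the same in every group. The ranges of neighbouring genes in that order overlapped between mice in places, for instance those of Gsdmd and Gsdme in untreated controls (130 ± 17.3 against 98.3 ± 25.9 CPM per kb, SD, n = 4). Within a library, each gene was above the next in all 16 libraries. The length used was that of the transcript with the longest coding sequence, 2502 bases for Gsdme. The exons of all Gsdme transcripts together cover 12742 bases, so the place of Gsdme in this order depends on the length used.

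**Figure D1:**
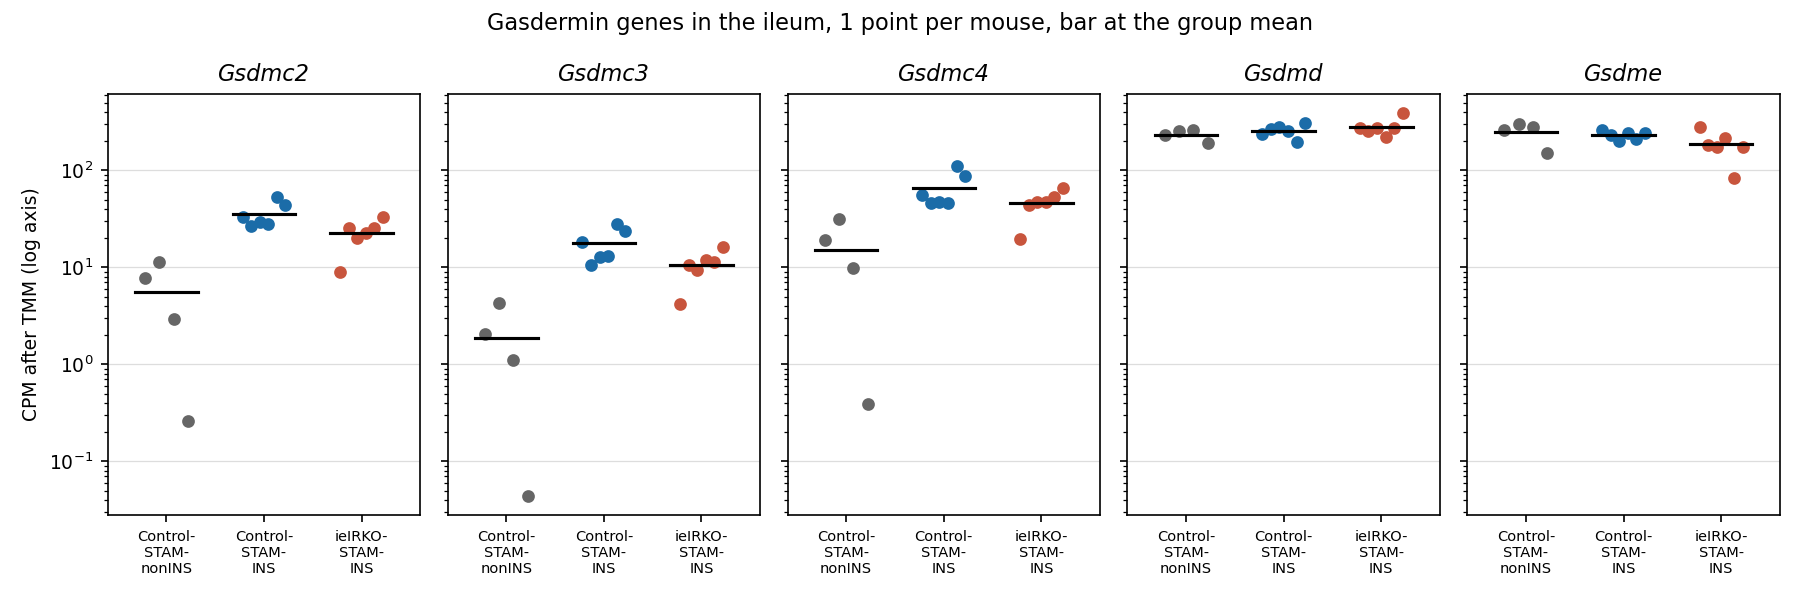
Level of the 5 detected gasdermin genes in each mouse, in CPM after TMM on a log axis, for the 3 groups; each point is 1 mouse and the bar is the group mean. Gsdmc2, Gsdmc3 and Gsdmc4 lie higher in all 6 insulin-treated control mice than in any untreated control mouse, while Gsdmd and Gsdme overlap between all groups.

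Gsdmc2, Gsdmc3 and Gsdmc4 were higher in insulin-treated than in untreated control mice, which is the contrast that chose the first 2 of them. Gsdmc2 was at 7.84, 11.4, 2.96 and 0.262 CPM in untreated control replicates 1 to 4, at 32.7, 26.6, 29.6, 27.7, 52.9 and 43.9 CPM in insulin-treated control replicates 1 to 6, and at 8.85, 25.5, 20.1, 22.5, 25.3 and 33.3 CPM in ieIRKO replicates 1 to 6. The untreated mice lay below every insulin-treated control mouse. Of the ieIRKO mice 5 of 6 lay below all insulin-treated controls, and replicate 1 alone fell within the untreated range.

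Gsdmc3 had the lowest level of the expressed genes. It was at 2.08, 4.31, 1.12 and 0.0437 CPM in untreated controls, the last of these being 1 read, at 18.3, 10.7, 12.9, 13.2, 28.2 and 23.9 CPM in insulin-treated controls, and at 4.22, 10.6, 9.36, 11.8, 11.2 and 16.4 CPM in ieIRKO mice. The untreated mice again lay below every insulin-treated control mouse, 3 of 6 ieIRKO mice lay below all insulin-treated controls, and replicate 1 was again the only ieIRKO library inside the untreated range.

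Gsdmc4 gave most of the gasdermin C reads. It was at 19.1, 31.2, 9.79 and 0.394 CPM in untreated controls, at 55.9, 46.4, 47.1, 45.5, 111.5 and 87.1 CPM in insulin-treated controls, and at 19.6, 43.8, 47.4, 47.5, 52.8 and 66.2 CPM in ieIRKO mice. Insulin-treated controls were again above all untreated controls, and insulin-treated control replicates 5 and 6 were the highest libraries for each of the 3 genes.

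From untreated controls to insulin-treated controls the log2 fold change was 3.35 (SE 0.62) for Gsdmc3, 2.73 (SE 0.61) for Gsdmc2 and 2.15 (SE 0.67) for Gsdmc4. By size these rises ranked 7, 14 and 30 among the 15267 genes tested. The groups did not overlap for 3 of the 5 members, all higher with insulin, where 10.6% of all genes tested had groups that did not overlap, 4.4% did so in that direction and 6.23% in the other. Since the genes were chosen on this contrast, nothing is read from that count. The size of the rise depended on single untreated mice. Without untreated control replicate 2, the highest of its group, the log2 fold changes were 4.16 for Gsdmc3, 3.35 for Gsdmc2 and 2.79 for Gsdmc4. Without untreated control replicate 4, which held 16 gasdermin C reads against 248 to 599 in the rest of its group, the log2 fold changes were 2.88 for Gsdmc3, 2.29 for Gsdmc2 and 1.72 for Gsdmc4.

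The mice labelled ieIRKO were compared with insulin-treated controls to ask whether the floxed receptor allele with Villin-Cre changes gasdermin expression under insulin. Gsdmc2, Gsdmc3 and Gsdmc4 had lower means in ieIRKO mice, but the groups overlapped and no member passed the test. The log2 fold change was -0.65 for Gsdmc2 (SE 0.47, 95% confidence interval -1.66 to 0.36, edgeR adjusted p = 0.637), -0.75 for Gsdmc3 (SE 0.45, interval -1.72 to 0.21, adjusted p = 0.563) and -0.50 for Gsdmc4 (SE 0.54, interval -1.67 to 0.66, adjusted p = 0.771). As a fold of the control level, the interval for Gsdmc2 reached from 0.316 to 1.28, so neither a fall nor equality was shown. By edgeR 0 of 5 members were called, where 0.223% of all genes tested were called, and DESeq2 also called 0. The groups overlapped for all 5, where 0.845% of all genes tested had groups that did not. The count at an unadjusted p under 0.05 was 0 as well.

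The mice labelled ieIRKO were also compared with untreated controls, a contrast in which insulin and genotype label differ together and which uses the same untreated mice as the contrast that chose the genes. Gsdmc3 was higher with a log2 fold change of 2.602 (SE 0.62, 95% confidence interval 1.29 to 3.92, edgeR adjusted p = 0.0132), and Gsdmc2 with 2.07 (SE 0.60, interval 0.78 to 3.36, adjusted p = 0.0363). Gsdmc4 had a log2 fold change of 1.65 that did not pass (SE 0.66, interval 0.23 to 3.07, adjusted p = 0.114). For each of these genes 5 of the 6 ieIRKO libraries lay above all 4 untreated libraries. Members called were 2 of 5, where 13.3% of all genes tested were called, 5.74% higher and 7.59% lower. Gsdmc2 and Gsdmc3 were chosen for a rise from these same untreated mice, so nothing is read from this count. The groups overlapped for all 5, where 8.56% of all genes tested had groups that did not, 3.8% higher and 4.76% lower. Both calls were lost when only the groups compared entered the fit (edgeR adjusted p = 0.124 for Gsdmc2 and 0.0607 for Gsdmc3). The call of Gsdmc2 was also lost without any 1 of untreated control replicates 1 and 3 (adjusted p = 0.0648 and 0.1002) and ieIRKO replicates 2, 3, 5 and 6 (adjusted p = 0.0542, 0.0549, 0.0579 and 0.0595), whereas Gsdmc3 was called in all 16 fits that left out 1 library. Without both ieIRKO replicates 2 and 3 Gsdmc2 was not called either (adjusted p = 0.0887). Without untreated control replicate 4 both calls held, with log2 fold changes of 1.63 for Gsdmc2 (adjusted p = 0.0269) and 2.12 for Gsdmc3 (adjusted p = 0.0126). Without untreated control replicate 2 they were 2.70 (adjusted p = 0.0171) and 3.41 (adjusted p = 0.00449).

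**Figure D2:**
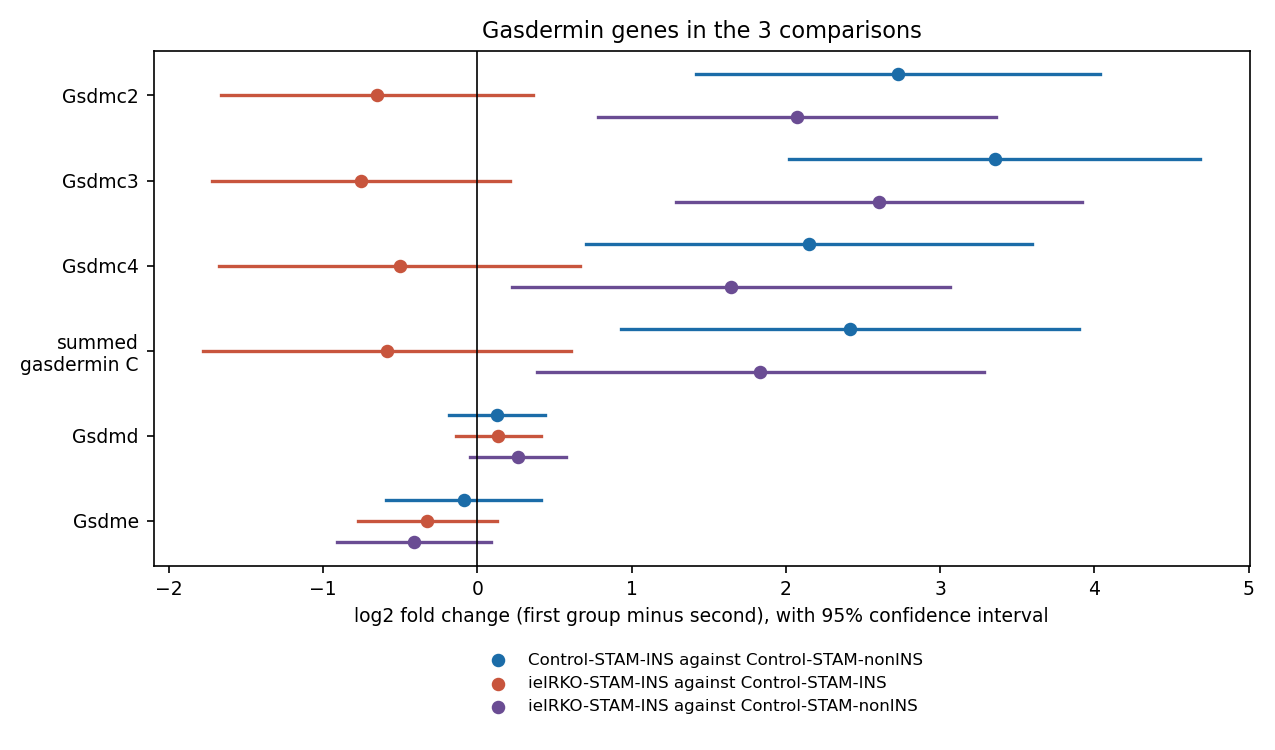
Log2 fold change of each detected gasdermin gene and of the summed gasdermin C genes in the 3 comparisons, as points with 95% confidence intervals from the edgeR fit. The contrast of insulin-treated and untreated controls chose Gsdmc2 and Gsdmc3 and is shown as a description; for Gsdmc2, Gsdmc3 and Gsdmc4 the intervals of ieIRKO mice against insulin-treated controls include 0.

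The summed gasdermin C genes do not depend on how the counted reads were shared out among them. Whether reads that match several genes were counted is not given in the sources used here, so the sum can lack such reads. Their level was 29.0, 47.0, 13.9 and 0.70 CPM in untreated controls, 106.9, 83.7, 89.7, 86.4, 192.7 and 154.9 CPM in insulin-treated controls, and 32.7, 80.0, 76.8, 81.9, 89.3 and 115.9 CPM in ieIRKO mice. Insulin-treated controls were above all untreated controls, with a log2 fold change of 2.42 (SE 0.69), which was 2.00 without untreated control replicate 4 and 3.07 without untreated control replicate 2, and ieIRKO replicate 1 was the only library of its group within the untreated range.

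Between ieIRKO mice and insulin-treated controls the log2 fold change of the sum was -0.58 (SE 0.56, 95% confidence interval -1.78 to 0.61, edgeR adjusted p = 0.731). An exact two-sided permutation test of the mean log2 CPM gave p = 0.0866 over 924 arrangements, and p = 0.0173 without ieIRKO replicate 6, the highest of its group, against 0.0649 to 0.173 when any other library of the 2 groups was left out. Against untreated controls it was 1.83 in ieIRKO mice (SE 0.67, interval 0.38 to 3.28, adjusted p = 0.0858), and the exact two-sided permutation test gave p = 0.0190 over 210 arrangements, where the smallest possible p is 0.00952. The edgeR p was 0.0168 before adjustment over all genes tested. Without untreated control replicate 2 the log2 fold change was 2.48 (edgeR adjusted p = 0.0444), and without untreated control replicate 4 it was 1.41 (adjusted p = 0.0513). The difference in mean log2 CPM was 2.74, and without untreated control replicate 4 it was 1.48 (exact permutation test, p = 0.0476).

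Because epithelial markers were low in untreated control replicate 4, the sum was also divided by the summed pan-epithelial markers (Epcam, Vil1, Cdh17, Krt8, Krt18, Krt19 and Krt20) of the same library. Per 1000 epithelial CPM, the gasdermin C sum was 1.39 ± 1.19 (SD, n = 4) in untreated controls, 7.33 ± 3.16 (SD, n = 6) in insulin-treated controls and 5.43 ± 1.93 (SD, n = 6) in ieIRKO mice. The lowest insulin-treated control value was 4.91 and the highest untreated control value 2.80. On this scale ieIRKO mice differed from insulin-treated controls by -0.45 in log2 (exact permutation test, p = 0.286) and from untreated controls by 2.75 (exact permutation test, p = 0.0190). Untreated control replicate 4 was the lowest library on this scale as well, at 0.0727 against 0.821 to 2.80 in the rest of its group, and without it the second difference was 1.62 (exact permutation test, p = 0.0476).

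The expressed gasdermin C genes moved together from mouse to mouse. Over the 16 libraries Pearson's r of log2 CPM was 0.993 between Gsdmc2 and Gsdmc3, 0.985 between Gsdmc2 and Gsdmc4 and 0.971 between Gsdmc3 and Gsdmc4. After the group means were subtracted the values were 0.986, 0.987 and 0.981, and without the 2 libraries farthest from the median (untreated control replicates 3 and 4) they were 0.981, 0.963 and 0.951 over 14 libraries. These are descriptions, since the genes share libraries and can share reads. With Gsdmd r was lower, at 0.390 to 0.420 for the same genes and 0.0569 to 0.0895 without those 2 libraries. With Gsdme it was -0.0018 to 0.0669, and -0.318 to -0.264 without them.

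**Figure D3:**
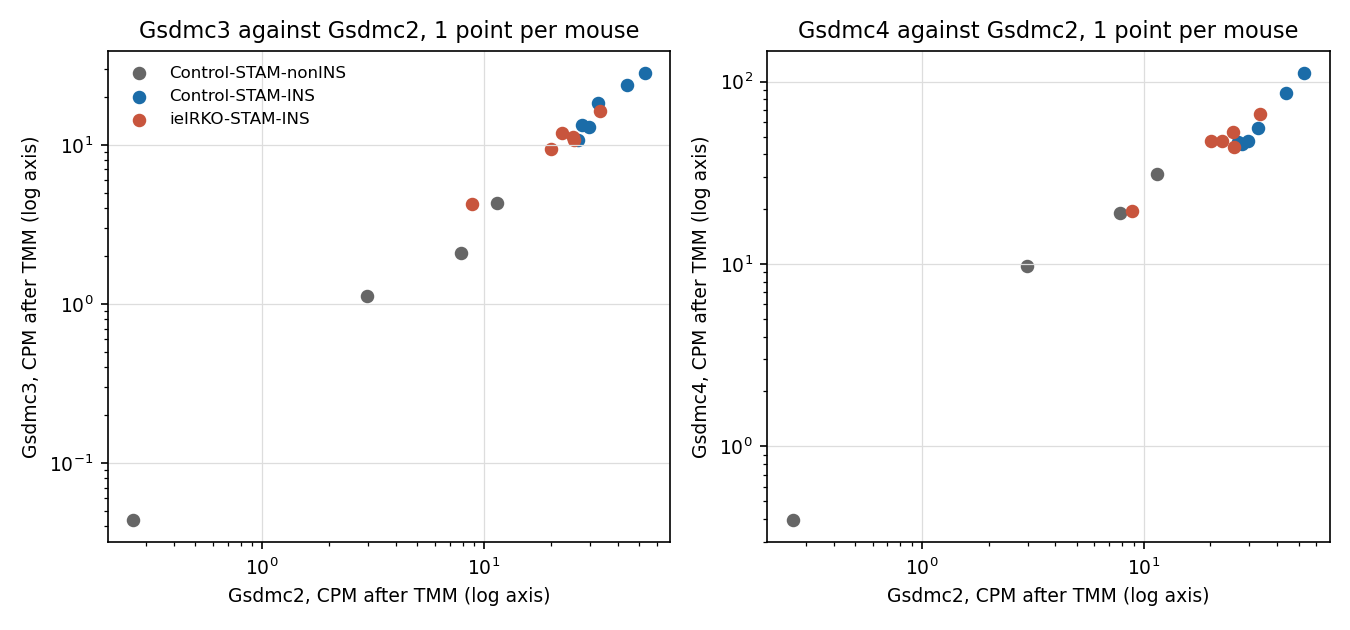
Level of Gsdmc3 (left) and Gsdmc4 (right) against Gsdmc2 in each mouse, in CPM after TMM on log axes, colored by group. The points follow a line through all groups, with r = 0.993 and r = 0.985 over 16 mice, and untreated control replicate 4 is at the lower left.

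The make-up of the gasdermin C reads was compared between the groups. Gsdmc4 gave 64.8% ± 6.06 (SD, n = 4) of the reads in untreated controls, 54.5% ± 2.33 (SD, n = 6) in insulin-treated controls and 58.5% ± 2.40 (SD, n = 6) in ieIRKO mice. The share of Gsdmc2 was 27.6% ± 7.01, 30.5% ± 2.20 and 28.3% ± 2.00 in the same order, and it differed by -2.26 percentage points between ieIRKO mice and insulin-treated controls (exact two-sided permutation test, p = 0.106). Without untreated control replicate 4 the untreated shares were 67.6% ± 2.58 for Gsdmc4, 24.3% ± 2.83 for Gsdmc2 and 8.14% ± 1.013 for Gsdmc3 (SD, n = 3). Without ieIRKO replicate 2 the difference in the share of Gsdmc2 was -2.99 points (exact permutation p = 0.0390). Gsdmc3 gave the smallest share, and its range in untreated controls did not overlap that of either group given insulin. In untreated controls it was 7.16%, 9.18%, 8.06% and 6.25%, in insulin-treated controls it ran from 12.7% to 17.1%, and in ieIRKO mice from 12.2% to 14.4%. The 95% exact Clopper-Pearson intervals of the untreated mice reached up to 10.01%, 11.8%, 12.2% and 30.2%, the last from 16 reads, and they cover counting error only. No test is given for this share, which was singled out after its values were seen and is part of the contrast that chose the genes.

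**Figure D4:**
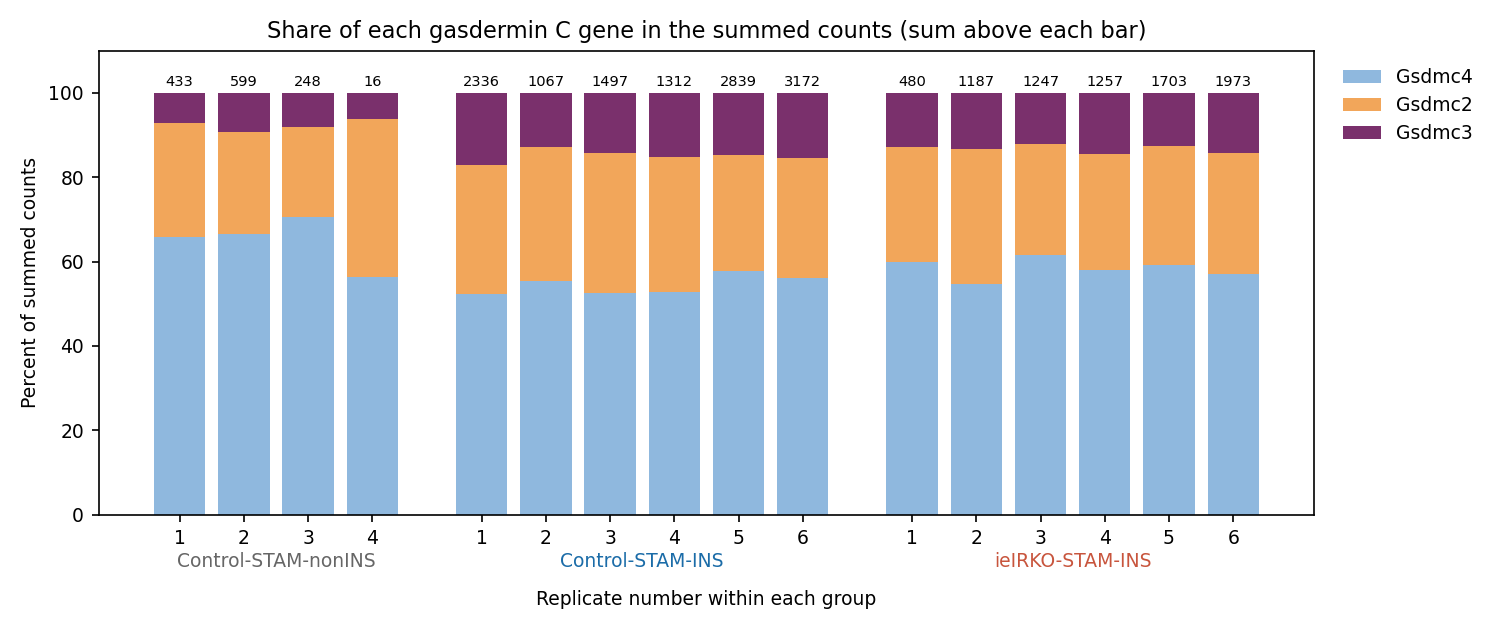
Share of Gsdmc4, Gsdmc2 and Gsdmc3 in the summed gasdermin C counts of each mouse, in percent, with the summed count above each bar. The share of Gsdmc3 is 6.25% to 9.18% in untreated controls and 12.2% to 17.1% in the mice given insulin; the bar of untreated control replicate 4 rests on 16 reads.

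Gsdmd, the gasdermin cut by inflammatory caspases, was not called in either tested comparison. It was at 232, 252, 261 and 191 CPM in untreated controls, ran from 194 to 309 CPM with a median of 259 in insulin-treated controls, and from 221 to 393 CPM with a median of 271 in ieIRKO mice. The groups overlapped in all comparisons. The log2 fold change was 0.13 (SE 0.15) with insulin in control mice, 0.13 (SE 0.13, 95% confidence interval -0.14 to 0.41, edgeR adjusted p = 0.736) for ieIRKO mice against insulin-treated controls, and 0.26 (SE 0.15, interval -0.05 to 0.57, adjusted p = 0.249) against untreated controls.

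Gsdme, which is cut by granzyme B, had the lowest mean in ieIRKO mice. It was at 258, 297, 277 and 152 CPM in untreated controls, ran from 200 to 263 CPM with a median of 235 in insulin-treated controls, and was at 278, 182, 176, 214, 84.2 and 175 CPM in ieIRKO mice. Of the 6 ieIRKO libraries 4 lay below all insulin-treated control libraries and 1 above them. The log2 fold change was -0.09 (SE 0.24) with insulin in control mice, -0.32 (SE 0.21, 95% confidence interval -0.78 to 0.13, edgeR adjusted p = 0.598) for ieIRKO mice against insulin-treated controls and -0.41 (SE 0.24, interval -0.91 to 0.09, adjusted p = 0.257) against untreated controls. The lowest library, ieIRKO replicate 5, also had the lowest summed enterocyte markers of all libraries (7092 CPM against 17962 to 32408 in the rest of its group), and without it the log2 fold changes of ieIRKO mice were -0.18 against insulin-treated controls and -0.26 against untreated controls. With insulin in control mice the log2 fold change was -0.26 without untreated control replicate 4 and 0.02 without untreated control replicate 2. Gsdme overlaps Mpp6 on the opposite strand, and whether the counting used strand is not given in the sources used here. Mpp6 stayed between 25.5 and 33.7 CPM.

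The genes around the gasdermin C genes were looked at in turn. Within 1 Mb on either side, 28 other genes are annotated, 19 of them are listed in the files and 3 passed the filter. Fam49b, Asap1 and Adcy8 had log2 fold changes with insulin of 0.13 (SE 0.12), -0.16 (SE 0.28) and 0.36 (SE 0.21), with edgeR adjusted p of 0.553, 0.775 and 0.299. None of them was called in the other comparisons, where their adjusted p ran from 0.235 to 0.957. The pseudogenes Gsdmcl1, Gsdmcl2 and Gsdmcl-ps, which lie on the plus strand next to the gasdermin C genes, were not analysed here.

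Since Gsdmc3 had the largest rise of the members, its promoter was read from RefSeq. The table of promoters held Gsdmc3 and Gsdme of the 6 genes. The 250 bases before the start of Gsdmc3 (chr15:63878559-63878808, minus strand, GRCm38.p6) are shown 5′ to 3′.
Gsdmc3: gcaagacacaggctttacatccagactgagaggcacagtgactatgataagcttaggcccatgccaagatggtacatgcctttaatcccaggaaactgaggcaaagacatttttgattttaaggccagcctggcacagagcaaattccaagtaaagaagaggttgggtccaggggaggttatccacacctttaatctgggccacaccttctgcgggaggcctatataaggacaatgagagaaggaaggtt
A window of 300 bases, 250 before and 50 after the start, was searched on both strands for TTC and GAA with 4 bases between them (the Stat6 motif), TTCNNNGAA (other Stat factors), a pair of GAAA with 2 bases between them (interferon regulatory factors) and TGTTTAC (forkhead factors). Among all 32851 promoters read, 6.95%, 8.30%, 3.44% and 3.65% held these letters, and neither Gsdmc3 nor Gsdme held any of them, which says only that the letters are not in this window.

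The genes whose level across the 16 libraries was most like the gasdermin C sum were Chodl (r = 0.968), Mgat4c (0.959), Optc (0.944), ccdc198 (0.943) and Upp1 (0.928), by Pearson's r of log2 CPM, where the median of 15262 genes was -0.0033 and the 99th percentile 0.767. Chodl, a C-type lectin, was at 1.90 ± 0.91 CPM (SD, n = 4) in untreated controls, 4.54 ± 0.26 (SD, n = 6) in insulin-treated controls and 3.55 ± 0.30 (SD, n = 6) in ieIRKO mice. Upp1, a uridine phosphorylase, was at 71.1 ± 50.3, 208 ± 58.2 and 125 ± 51.6 CPM in the same order. After the group means were subtracted the 5 most alike were Chodl (r = 0.937), 1810065E05Rik (0.925), ccdc198 (0.924), Mgat4c (0.906) and Oma1 (0.899). Without untreated control replicates 3 and 4, r of log2 CPM was 0.850 for Chodl, 0.869 for Optc and 0.707 for Mgat4c, but 0.618 for ccdc198, 0.590 for Upp1, 0.497 for Oma1 and 0.343 for 1810065E05Rik over 14 libraries.

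The genes that act with gasdermins were followed in 8 lists, which hold 62 genes, 49 of them tested. The lists were drawn up with earlier results of these data known, so the counts of calls are descriptions. With insulin in control mice 15 of the 49 were called (10 higher and 5 lower, where 10.5% of all genes tested were called, 3.73% higher and 6.76% lower), against 3 of 49 (1 higher, where 0.0393% of all genes were called higher, and 2 lower, where 0.183% were called lower) for ieIRKO mice against insulin-treated controls. For ieIRKO mice against untreated controls 13 of 49 were called (6 higher and 7 lower, where 13.3% of all genes tested were called, 5.74% higher and 7.59% lower). The median log2 fold change of the 49 was 0.17, -0.04 and 0.17, beside -0.0043, 0.02 and 0.01 over all genes tested. These counts leaned on single untreated mice: without untreated control replicate 1 they were 9 with insulin and 5 for ieIRKO mice against untreated controls, and without replicate 3 the latter was 8.

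Of the 4 other family members looked at (Gsdma, Gsdma2, Gsdma3 and Pjvk) only Gsdma passed the filter, at 0.853, 0.683 and 0.463 CPM on average in the 3 groups, and it was not called.

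Of 12 tested inflammasome sensors and adaptor genes 6 were higher and 1 lower in insulin-treated controls than in untreated controls, where 3.73% of all genes tested were called higher and 6.76% lower, and 3 of the 6 rises held in 8 of 16 fits that left out 1 library. The median log2 fold change of the 12 was 0.50, beside -0.0043 over all genes tested. In the same comparison 3 of 6 tested T cell markers (Cd3e, Cd3g and Cd8a) and 1 of 5 macrophage markers (Itgam) were called higher. None of these markers was called lower, and their part in the inflammasome results was not tested. Naip5 and Naip2, which recognise bacterial flagellin and a rod protein of type III secretion systems, rose from 147 ± 26.1 to 222 ± 27.2 CPM (log2 fold change 0.60, SE 0.14, edgeR adjusted p = 0.0108) and from 53.1 ± 6.48 to 84.3 ± 8.94 CPM (0.67, SE 0.16, adjusted p = 0.0109), with all 6 treated mice above all 4 untreated mice in both. Nlrp6, an epithelial sensor, rose from 153 ± 34.9 to 222 ± 18.3 CPM (0.54, SE 0.13, adjusted p = 0.0110). Pycard, the adaptor that links sensors to caspase-1, rose from 186 ± 5.47 to 256 ± 28.8 CPM (0.46, SE 0.13, adjusted p = 0.0354). Nlrp9b, from 32.7 ± 12.8 to 52.1 ± 5.49 CPM, and Nlrp1b, from 10.7 ± 3.03 to 16.9 ± 2.65 CPM, rose by 0.68 and 0.66 (adjusted p = 0.0371 and 0.0441). Aim2, the sensor of cytosolic DNA, fell from 21.7 ± 4.77 to 11.3 ± 1.97 CPM (-0.94, SE 0.15, adjusted p = 0.00098). Aim2, Naip2 and Naip5 were called in all 16 fits that left out 1 library, Nlrp6 in all but that without untreated control replicate 1 (adjusted p = 0.0536), and Pycard, Nlrp9b and Nlrp1b in 8 of 16 each, none of these without untreated control replicate 1, 3 or 4.

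In ieIRKO mice against insulin-treated controls none of the 12 inflammasome genes was called by edgeR. Against untreated controls, Nlrp6 (log2 fold change 0.45, edgeR adjusted p = 0.0240) and Pycard (0.48, adjusted p = 0.0245) were higher and Aim2 was lower (-0.94, adjusted p = 0.00098). Aim2 stood at 11.3 ± 1.73 CPM in ieIRKO mice, and all 6 of these mice were below all 4 untreated mice, as were all 6 insulin-treated control mice. The call of Nlrp6 was lost without untreated control replicate 1, 3 or 4 (adjusted p = 0.0963, 0.0844 and 0.0511), and that of Pycard without untreated control replicate 1 or ieIRKO replicate 3 (adjusted p = 0.0706 and 0.0505).

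Of the proteases that cut gasdermins 7 of 9 were tested. Casp4, the sensor of cytosolic lipopolysaccharide that cuts Gsdmd, was at 30.7 ± 6.11 CPM in untreated controls, 33.3 ± 2.25 in insulin-treated controls and 47.3 ± 8.69 in ieIRKO mice. It was higher in ieIRKO mice than in untreated controls (log2 fold change 0.63, SE 0.14, edgeR adjusted p = 0.00685), with no overlap. Against insulin-treated controls its log2 fold change was 0.50 (SE 0.12, interval 0.25 to 0.76, adjusted p = 0.152) and did not pass. Gzma, a granzyme of cytotoxic lymphocytes, was higher in ieIRKO mice than in untreated controls (1.19, SE 0.38, adjusted p = 0.0493). The summed markers of T cells, among them Gzma, ran from 21.9 to 48.0 CPM in untreated controls, from 40.1 to 74.1 in insulin-treated controls and from 41.2 to 107 in ieIRKO mice, with Trdc at 3 counts or fewer in every library, and the part of this in the result for Gzma was not tested. With 1 library left out, the call of Casp4 held in 16 of 16 fits and that of Gzma in 4. Casp8, which is known to cut gasdermin C, was at 184, 149 and 151 CPM on average in the 3 groups and was not called.

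Of 5 cytokines and alarmins that leave through gasdermin pores, 2 fell with insulin, where 6.76% of all genes tested were called lower, and 3 were not called. Il18, which is made by epithelial cells, fell with insulin from 65.5 ± 13.2 to 32.0 ± 6.75 CPM (log2 fold change -1.03, SE 0.20, edgeR adjusted p = 0.00409), all 6 treated mice being below all 4 untreated mice. It was at 41.6 ± 11.01 CPM in ieIRKO mice, lower than in untreated controls (-0.65, SE 0.20, adjusted p = 0.0394) and 0.38 above insulin-treated controls without passing the test (interval -0.0043 to 0.76, adjusted p = 0.449). Il1a, at 1.63 ± 0.98 CPM in untreated controls, was lower in insulin-treated controls (-1.85, SE 0.46, adjusted p = 0.0163) and in ieIRKO mice (-1.93, SE 0.47, adjusted p = 0.0113). The fall of Il18 with insulin held in 16 of 16 fits that left out 1 library, the difference between ieIRKO mice and untreated controls in 7, and both calls of Il1a were lost only without untreated control replicate 1 (adjusted p = 0.0935 and 0.0696). Il1b, Il33 and Hmgb1 were not called in any comparison.

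Of the regulators of gasdermin genes and proteins, Irf1, an activator of Gsdmd transcription, rose with insulin from 101.3 ± 15.01 to 177 ± 38.1 CPM (log2 fold change 0.81, SE 0.15, edgeR adjusted p = 0.00262), and it was at 168 ± 25.4 CPM in ieIRKO mice (0.73 against untreated, adjusted p = 0.00422). Zdhhc7, a palmitoyltransferase, rose from 69.8 ± 7.71 to 94.2 ± 8.13 CPM (0.44, adjusted p = 0.0113) and was also higher in ieIRKO mice than in untreated controls (0.34, adjusted p = 0.0334, held in 11 of 16 fits that left out 1 library). Stat6 was lower by 0.38 in insulin-treated controls (131 ± 10.7 against 100 ± 3.52 CPM, adjusted p = 0.00594) and lower by 0.35 in ieIRKO mice (adjusted p = 0.00917) than in untreated controls. The 7 genes of membrane rupture and repair, Ninj1 and the ESCRT genes, were not called in any comparison, and their log2 fold changes lay between -0.51 and 0.21.

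**Figure D5:**
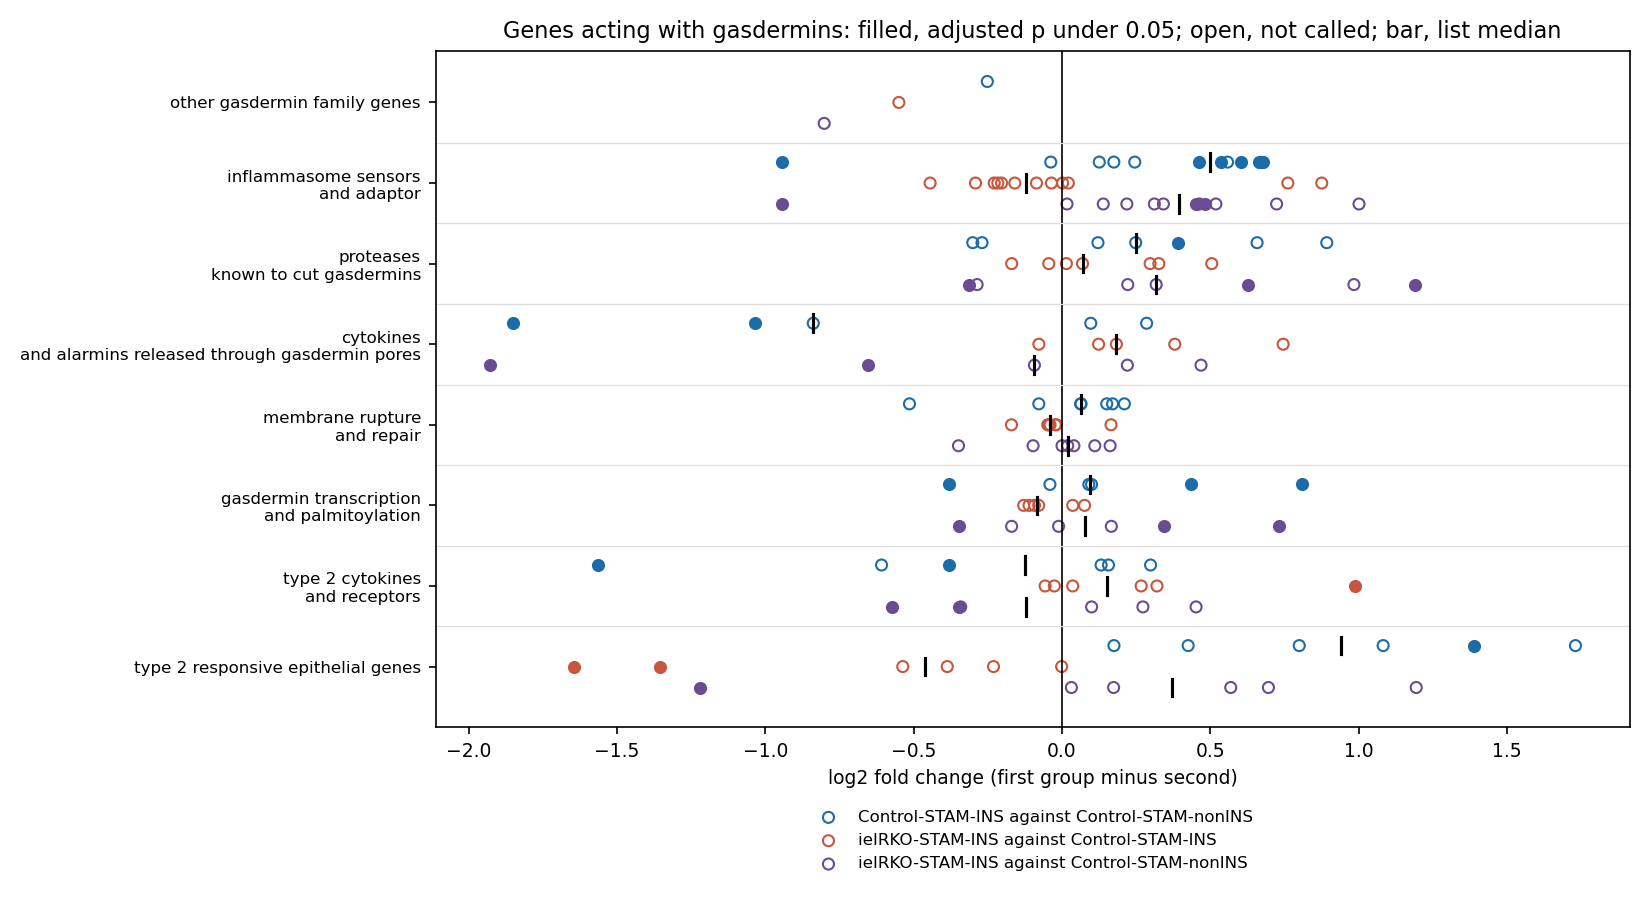
Log2 fold change of every tested gene of the 8 lists in the 3 comparisons, 1 point per gene, with filled points for an edgeR adjusted p under 0.05 and a bar at the list median. Inflammasome genes lie mostly to the right of 0 with insulin in control mice (median 0.50), and only Il1rl1, Ang4 and Itln1 are called in ieIRKO mice against insulin-treated controls.

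The type 2 cytokine genes Il4, Il5, Il13 and Il25 were at the limit of detection. Il13 had no count, and Il4, Il5 and Il25 had 3 counts or fewer in every library. Il1rl1, the receptor of the alarmin interleukin-33, fell with insulin from 19.4 ± 3.60 to 6.54 ± 1.32 CPM (log2 fold change -1.56, SE 0.17, edgeR adjusted p = 3.84e-05), and it was higher in ieIRKO mice than in insulin-treated controls at 13 ± 2.38 CPM (0.99, SE 0.16, adjusted p = 0.00328). It was also lower in ieIRKO mice than in untreated controls (-0.57, SE 0.17, adjusted p = 0.0287), and no group overlapped another. That last call was lost without untreated control replicate 1 or 3 or ieIRKO replicate 2 (adjusted p = 0.103, 0.1001 and 0.0504), while the others held in all 16 fits. Tuft cell markers, which mark the epithelial source of Il25, summed to 30.3 to 35.5 CPM in untreated controls, 36.3 to 53.6 in insulin-treated controls and 34.2 to 53.1 in ieIRKO mice. Of the 6 tuft cell markers tested, Trpm5 alone was called, higher with insulin in both comparisons with untreated mice.

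Of 6 tested epithelial genes that type 2 cytokines are known to raise, 1 rose with insulin (3.73% of all genes tested did), 2 were lower in ieIRKO mice than in insulin-treated controls (0.183% of all genes) and 1 was lower there than in untreated controls (7.59%). Itln1, an intelectin, rose with insulin from 326 ± 163 to 854 ± 157 CPM (log2 fold change 1.39, SE 0.29, edgeR adjusted p = 0.00615) and was lower in ieIRKO mice at 334 ± 67.2 CPM (-1.36 against insulin-treated controls, SE 0.25, adjusted p = 0.0234, held in 7 of 16 fits that left out 1 library). Ang4, an antimicrobial ribonuclease, was at 121 ± 24.1, 162 ± 40.7 and 51.7 ± 14.2 CPM in the 3 groups, lower in ieIRKO mice than in insulin-treated controls (-1.64, SE 0.20, adjusted p = 0.000402). Both are also on the list of Paneth cell markers, whose sum was 723 to 1341 CPM in ieIRKO mice against 2836 to 4696 in insulin-treated controls, and the part of this in the result was not tested. Sprr2a3 had a log2 fold change of 1.73 with insulin (SE 0.62, adjusted p = 0.0914) and Clca1 one of 0.18 (adjusted p = 0.458). Retnlb was too low to be tested in any comparison. The Naip, Nlrp1, Ang and Sprr2a genes have close paralogs, and how reads were split among them is uncertain too.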

How the data were processed

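RNA-seq of mouse ileum was analysed in 16 libraries. Total RNA libraries were made with the NEBNext Ultra Directional kit. The authors mapped reads with CLC Genomics Workbench 21.0.3 and deposited 1 table of gene counts per library, with GRCm38/mm10 named as the build per the labels. Whether counting used strand, and how reads shared by paralogs were assigned, is not given in the sources used here.

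The deposited counts, which are not normalized, were grouped by the labels into 3 groups. Genes were filtered with filterByExpr (minimum count 10, minimum total 15), scaled by TMM and tested with the quasi-likelihood test of edgeR 4.0.16 (limma 3.58.1, R 4.3.3) in 1 fit of all 3 groups. P-values were adjusted by the Benjamini-Hochberg method over all genes tested, and genes at an adjusted p under 0.05 were called. Summed levels and shares were compared by exact two-sided permutation tests (scipy 1.17.1). Log2 CPM used a prior count of 2. Confidence intervals are 95%, and intervals of shares and limits for 0 counts cover counting error only. Coding sequences from GENCODE for GRCm38 were aligned with MAFFT 7.526, and 97.5% of listed genes matched that annotation. Depth per library is given with the results. The scripts were checked on simulated data.

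Named were the 6 members, the called or non-overlapping genes of the pathway lists, annotated neighbours within 1 Mb, the 5 genes most like the gasdermin C sum by each of 2 correlations, and Insr. Some genes of the lists are counted with them but are not reported here by name. Genes of those lists named without a call were chosen after their values were seen. The members and lists were chosen with earlier results of these data known. The alternatives were DESeq2 1.42.0, other size factors, no filter, only the groups compared, a replicate block and leaving out each library. Leaving out other libraries, scaling to epithelial markers and leaving out libraries in the permutation tests of the sum were chosen after seeing the data.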

Additional observations from a re-analysis of the deposited data

Results flagged for a closer look

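Over 25 measures, 75 groups of 4 or 6 libraries were searched for a library far from the rest of its group, measured as its gap to the nearest other library over the range of the group. Chance alone finds about 1 in 20 groups, and 3 were found. Gsdmd was high in ieIRKO replicate 6 (393 CPM against 221 to 272 in the other libraries, gap over range 0.702). Without that library the log2 fold change of Gsdmd between ieIRKO mice and insulin-treated controls was 0.01. The other values were Irf1 in insulin-treated control replicate 1 (252 CPM against 151 to 182, gap over range 0.690) and Zdhhc7 in untreated control replicate 2 (81.2 CPM against 64.8 to 67.2, gap over range 0.856). What sets these libraries apart was not tested.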

How the results depend on the processing

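The results were recomputed under 24 alternatives, 16 of which left out 1 library each. Between ieIRKO mice and insulin-treated controls no alternative called a member, and the summed gasdermin C genes stayed lower and not called by edgeR or DESeq2 (log2 fold change -0.72 to -0.40 with 1 library left out). By the exact permutation test the difference of the sum ran from -0.73 to -0.36, with p = 0.0173 without ieIRKO replicate 6 and 0.0649 to 0.173 in the other 11 tests. The share of Gsdmc2 between the same groups ran from -2.99 to -1.75 percentage points, and as a share of Gsdmc2 plus Gsdmc3 the difference reversed to 0.93 (exact permutation p = 0.506).

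Between ieIRKO mice and untreated controls 2 members were called. The number was 1 with no filter on low counts, 0 with only the groups compared, 0 with the replicate block, 1 without ieIRKO replicates 2 and 3, whose B cell genes stand apart, and 1 to 2 with 1 library left out. Without the library of each group lowest in the gasdermin C sum (untreated control replicate 4 and ieIRKO replicate 1) it was 4. Gsdmc4 at 1.38 (adjusted p = 0.0342) and Gsdme at -0.74 (adjusted p = 0.0230) were then also called. For Gsdme, however, the libraries left out were the lowest untreated control (152 CPM) and the highest ieIRKO mouse (278 CPM). The summed log2 fold change, 1.83 and not called, was called by DESeq2 (1.81, adjusted p = 0.0404) and without those lowest libraries (1.58, adjusted p = 0.0174), and ran from 1.41 to 2.48 with 1 library left out. By the exact permutation test the difference was 2.75 relative to pan-epithelial markers and 2.74 without that scaling (p = 0.0190 for both), beside an edgeR p of 0.0168 before adjustment. Of the pathway genes, 13 called between ieIRKO mice and untreated controls became 6 with only the groups compared, and 5 to 15 with 1 library left out. With 1 library left out, 15 with insulin in controls became 9 to 18, and 3 between the insulin-treated groups became 2 to 3. DESeq2 called 17, 19 and 4 in the same order. Insr between the insulin-treated groups reversed to -0.0026 without ieIRKO replicate 4 and ran up to 0.163. The causes were not tested.

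Replicate numbers did not pair the samples: over 14 same-number pairs the correlation of deviations from group means ran from -0.0943 to 0.179, and 4 were over 0.1. With the replicate block the summed log2 fold change was -0.54 (adjusted p = 0.759) between the insulin-treated groups and 1.82 (adjusted p = 0.181) against untreated controls, Gsdmc2 was 1.99 (adjusted p = 0.0990) and Gsdmc3 2.42 (adjusted p = 0.0534), and 14, 2 and 10 pathway genes were called in the 3 comparisons. The block called 0 members between the insulin-treated groups. All adjusted p in these paragraphs are from edgeR unless DESeq2 is named. Gsdmc3 had the fewest reads of the expressed gasdermin genes, at 1 to 55 per untreated library, so its counting error was the largest relative to its level.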
